A study of Rattus norvegicus with 6 samples.

Results

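Collagen genes were taken as the rows of the deposited rat lung table whose symbol is Col, a number, a and a number, with 1 identifier kept per symbol. This gave 40 collagen genes among 23802 genes, and no symbol had more than 1 row. They were sorted by the kind of chain they encode into 11 fibrillar chains, 6 basement membrane type IV chains, 2 multiplexins, 9 FACIT chains (fibril-associated collagens with interrupted triple helices), 3 beaded filament chains of type VI, 3 short-chain network chains of types VIII and X, 3 transmembrane chains and 3 anchoring or other chains. Poly(A) RNA from whole lung of male Sprague-Dawley rats, labelled WT, was sequenced in 3 samples taken 4 weeks after 1 dose of 60 mg/kg monocrotaline (MCT) and in 3 control samples from rats given saline. MCT is a plant alkaloid that injures lung vessels and is used to induce pulmonary arterial hypertension in rats, and the comparison asks which lung transcripts differ in that model. The labels give the MCT injection as intraperitoneal in one place and subcutaneous in another, and the saline as subcutaneous, so route cannot be told apart from treatment. The labels do not say whether each sample was a separate animal, so the p-values here reflect only how far these libraries scatter, part of which may be technical.

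A collagen molecule is a trimer of alpha chains wound into a triple helix, and the class of the chains sets where it goes. Fibrillar chains form the banded fibrils of vessel adventitia, airway walls and alveolar septa, and chains of type V start those fibrils and limit their width. Type IV chains form the sheet of the basement membrane: the a1 and a2 chains lie under nearly all endothelium and epithelium, while the a3, a4 and a5 chains form a separate network found in the alveolus and the kidney glomerulus.

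Summed counts were 14332930 to 17096157 per MCT library and 13525912 to 17916134 per control library, and the first principal component, with 56.9% of the variance, parted the groups. Genes known for lung made up a 6-gene list (Sftpc, Sftpb and others), whose summed level was 20190 to 34510 CPM (counts scaled to library size) in MCT lungs and 32350 to 38580 CPM in control lungs, with 0 of 6 members called by the test described below. Levels below are CPM scaled by edgeR's TMM method, or the authors' FPKM where chains are compared with each other, since FPKM is per length of gene. Whole tissue was sequenced, so a lower value cannot separate fewer cells of a type from less RNA per cell.

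The promoters of the type IV pairs are shown because both genes of 1 pair were called higher, while in another pair 1 gene was called lower and its partner was not called. In RefSeq, genome build GRCr8, which is not the build of the files, Col4a1 and Col4a2 start back to back with 76 bases between their starts, Col4a3 and Col4a4 with 412 and Col4a5 and Col4a6 with 1414. The first sequence is the whole stretch between the Col4a2 and Col4a1 starts (chr16:84885521-84885596, plus strand), with the GC box GGGCGG, read here on the other strand, in capitals. The others are the 250 bases upstream of Col4a3 (chr9:91323740-91323989, plus strand) and of Col4a4 (chr9:91323578-91323827, minus strand), with the 88 bases that lie in both, on opposite strands, in capitals.
Col4a2 to Col4a1: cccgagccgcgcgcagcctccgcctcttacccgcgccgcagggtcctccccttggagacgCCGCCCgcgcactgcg
Col4a3 upstream: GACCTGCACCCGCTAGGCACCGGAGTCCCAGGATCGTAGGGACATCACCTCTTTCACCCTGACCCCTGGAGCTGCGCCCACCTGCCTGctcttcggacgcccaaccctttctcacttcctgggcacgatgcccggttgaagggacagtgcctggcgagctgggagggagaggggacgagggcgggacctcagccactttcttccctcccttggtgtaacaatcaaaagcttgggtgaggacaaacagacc
Col4a4 upstream: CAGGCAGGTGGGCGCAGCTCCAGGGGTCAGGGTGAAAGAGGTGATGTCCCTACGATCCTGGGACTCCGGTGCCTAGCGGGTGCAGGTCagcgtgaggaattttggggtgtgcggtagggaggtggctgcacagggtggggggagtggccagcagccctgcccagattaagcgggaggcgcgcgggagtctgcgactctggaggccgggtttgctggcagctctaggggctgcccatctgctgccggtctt

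Windows of 300 bases, 250 before each start and 50 after, were found for 31 of the 40 collagen genes. GGGCGG, on either strand, stood in 18 of these windows (58.1%) and in 33.1% of all 33469 windows of the table. CCAAT stood in 9 (29.0%) against 37.5% of all windows, and TATAAA in 4 (12.9%) against 14.2%. Matches can share letters, since CCAAT on the other strand ends in the G letters with which GGGCGG begins. The Col4a1 and Col4a2 windows share 176 bases, so they share matches. These matches describe letters and not factor binding.

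Counts were enough to test 30 of the 40 collagen genes among 15250 genes tested. In MCT lungs 6 were higher (Col1a1, Col3a1, Col4a1, Col4a2, Col18a1 and Col12a1), 3 were lower (Col4a3, Col11a2 and Col13a1) and 21 were not called, where a call is an adjusted p (Benjamini-Hochberg) below 0.05 by edgeR's quasi-likelihood test. Over all genes tested, 8.01% were called higher and 5.11% lower, against 20% and 10% of the 30 collagen genes. All 3 MCT libraries lay above all 3 controls in 7 of the 30 (23.3%) and below them in 4 (13.3%), where this held for 18.4% and 17% of all genes tested. The median log2 fold change of the collagen genes was 0.17 (n = 30 genes), and that of all genes tested was -0.01.

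Calls fell in several chain classes. Of 9 fibrillar chains tested, 2 were higher, 1 was lower and 6 were not called, with a median log2 fold change of 0.35. Of the 21 tested chains of other classes, 4 were higher, 2 were lower and 15 were not called, with a median of 0.17. Within the other classes the medians were 0.05 for 6 type IV chains, 1.09 for 2 multiplexins, -0.08 for 5 FACIT chains, 0.20 for 3 type VI chains, 0.30 for 2 short-chain network chains, -0.43 for 2 transmembrane chains and 0.17 for the anchoring chain Col7a1. The fibrillar median was 0.22 with a stricter filter on low counts, without the rare Col11a1.

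**Figure D1:**
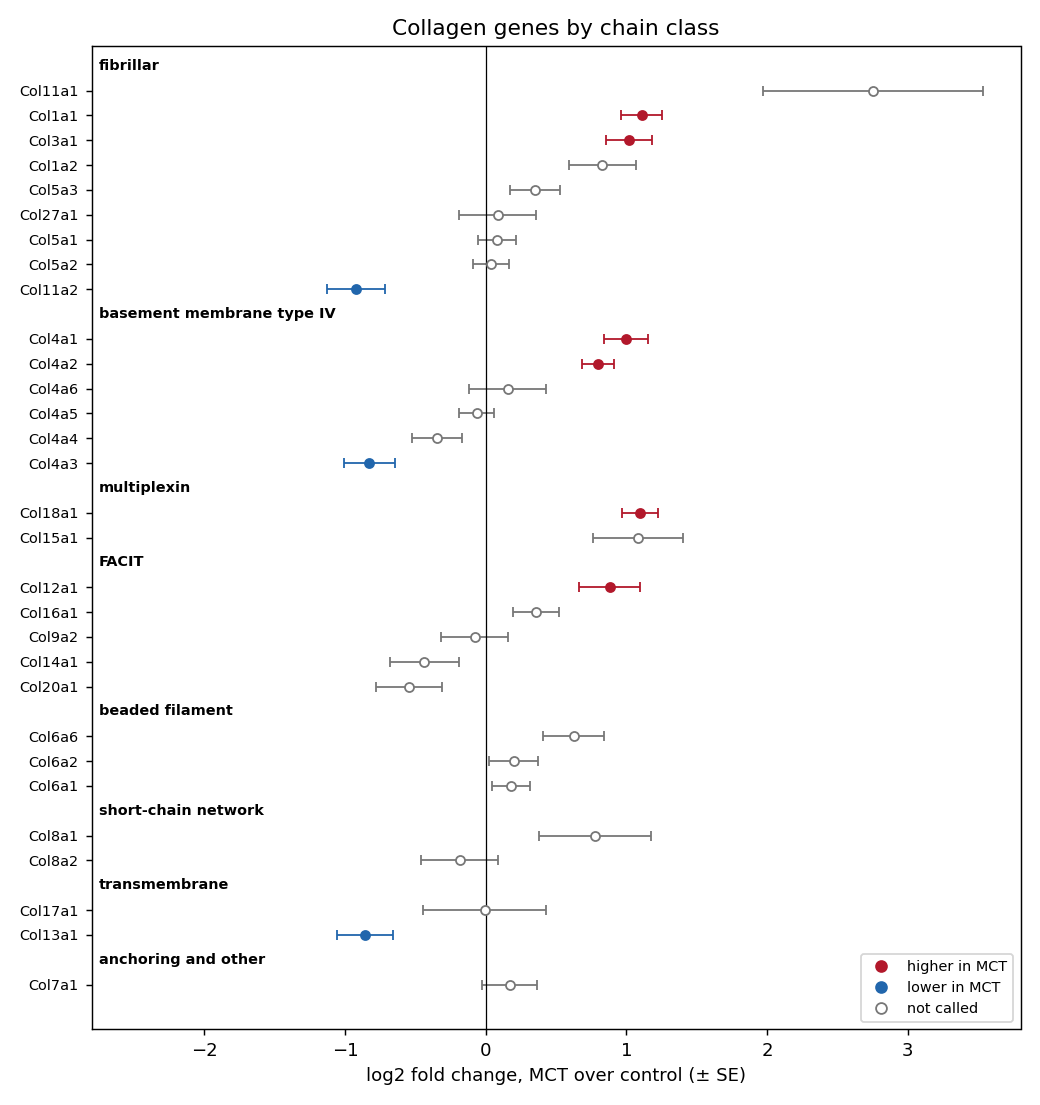
Log2 fold change (MCT over control, horizontal axis) of the 30 collagen genes tested, grouped by chain class; points are edgeR estimates and bars their standard error. Filled points passed the test: 6 lie to the right of 0 and 3 to the left, and both directions occur among fibrillar and type IV chains.

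By level, collagen transcripts took 0.783%, 0.767% and 0.714% of all counts in MCT lungs, against 0.487%, 0.485% and 0.499% in control lungs. Their summed FPKM was 1527, 1518 and 1396 in MCT lungs, against 976, 977 and 1008 in control lungs, with no overlap. The fibrillar chains made up 48.4% to 56.8% of that sum in MCT lungs and 41.8% to 44.1% in control lungs. The type IV chains made up 23.4% to 26.8% in MCT lungs and 27.1% to 28.5% in control lungs, although their own summed FPKM was higher, at 358 to 407 in MCT lungs and 265 to 287 in control lungs. Type VI chains held 9.8% to 14% in MCT lungs and 15.1% to 15.7% in control lungs, and the transmembrane chains 1.26% to 2.33% and 4.64% to 4.99%. One gene, Col3a1, accounted for 37.7% to 44.1% of the collagen FPKM in MCT lungs and 28.1% to 31.2% in control lungs. The share of each class is a part of the same summed FPKM, so the higher Col3a1 by itself lowers the shares of the other classes. With Col3a1 taken out of the sum, the fibrillar shares of the 2 groups overlapped. The type IV share was then higher in MCT lungs, not lower, so the direction of both differences depends on this gene. These sums leave out 3 loci that the table describes as collagen chains under other symbols: COL6A3, a second Col1a2 locus and a locus like the alpha-3(IV) chain, each described below. With them added, a choice made after the data were seen, the type VI share was 22.4% to 26.6% in MCT lungs and 22.5% to 29.4% in control lungs, so its groups overlapped. The fibrillar share was then 42.7% to 50.2% in MCT lungs and 37.4% to 40.6% in control lungs, the type IV share 19.2% to 21.9% and 22.8% to 25.3%, and the transmembrane share 1.03% to 1.9% and 3.91% to 4.34%, each still without overlap. Col3a1 was part of this sum too, at 30.6% to 36.1% in MCT lungs and 23.7% to 26.5% in control lungs. With Col3a1 taken out of this larger sum, both the fibrillar and the type IV shares overlapped between groups.

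**Figure D2:**
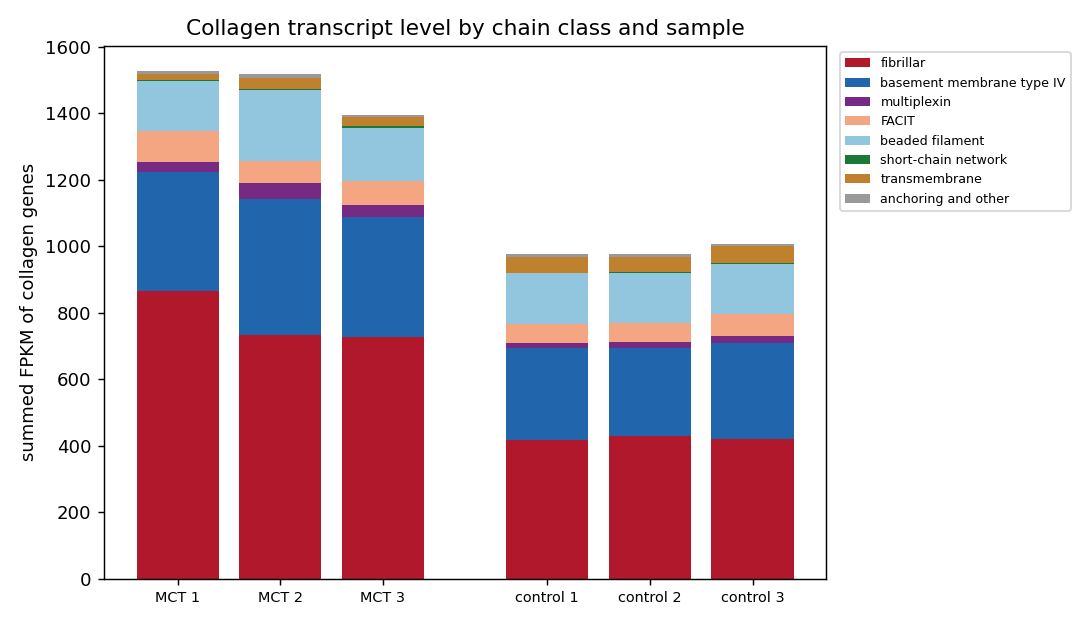
Summed FPKM (vertical axis, authors' values) of the 40 collagen genes in each of the 3 MCT and 3 control libraries, split by chain class. Bars reach 1396 to 1527 in MCT lungs and 976 to 1008 in control lungs, and the fibrillar block is the tallest in all 6.

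Among the fibrillar chains, Col1a1 and Col3a1 were about 2-fold higher. Col3a1, the single chain of type III collagen and the most abundant collagen transcript here, had 3190, 2763 and 2528 CPM in MCT replicates 1 to 3, against 1422, 1463 and 1302 CPM in control replicates 1 to 3. It was 2.03-fold higher (log2 fold change 1.02, SE 0.16, adjusted p = 0.00729, edgeR), with no overlap between groups. Col1a1, the alpha 1 chain of type I collagen, had 477, 393 and 523 CPM in MCT lungs, against 216, 232 and 199 CPM in control lungs. The lowest MCT library stood well above the highest control, and the gene was 2.16-fold higher (log2 fold change 1.11, SE 0.15, adjusted p = 0.00336, edgeR).

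Col1a2, the partner of Col1a1 in the type I trimer, was split in the table between 2 loci. The locus carrying the symbol had 148, 85.3 and 170 CPM in MCT lungs, against 65.3, 74.9 and 86.4 CPM in control lungs. MCT replicate 2 fell inside the control range, and the gene was not called (log2 fold change 0.83, SE 0.24, adjusted p = 0.0537, edgeR). A second locus, named NEWGENE_621351 and described in the table as the same chain, had 293, 273 and 272 CPM in MCT lungs, against 202, 158 and 150 CPM in control lungs, and was higher (log2 fold change 0.72, adjusted p = 0.0155, edgeR). The symbol's locus held 23.8% to 38.4% of the counts of the pair in MCT lungs and 24.5% to 36.6% in control lungs, and its counts are fractional, so how reads were divided between the loci is uncertain. With both loci summed, an alternative chosen after the data were seen, Col1a2 was higher (log2 fold change 0.76, adjusted p = 0.0109, edgeR). By the symbol's locus alone the call also appeared with DESeq2 (adjusted p = 0.00762), with no filter on low counts (adjusted p = 0.045), and once MCT replicate 2 was dropped (adjusted p = 0.00465).

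None of the type V chains was called. Col5a2, the most abundant of them, had 271, 257 and 243 CPM in MCT lungs, against 250, 222 and 278 CPM in control lungs (log2 fold change 0.04, SE 0.13, adjusted p = 0.87, edgeR). Col5a1 had 52.2, 53.8 and 56.5 CPM in MCT lungs, against 42.7, 58 and 53.3 CPM in control lungs (log2 fold change 0.08, SE 0.14). For both chains the groups overlap, and each value turned below 0 when 1 control library was left out, to -0.04 for Col5a1 without control replicate 1 and to -0.04 for Col5a2 without control replicate 2. Col5a3, a rarer chain, had a log2 fold change of 0.35 (SE 0.18, adjusted p = 0.222, edgeR). Col27a1, a fibrillar chain known from cartilage, had 0.09 (SE 0.27), which was -0.19 without MCT replicate 2 and -0.06 without control replicate 3.

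Ratios of FPKM gave the balance of chains within each library. Col3a1 over Col5a2 was 11.1, 10.1 and 9.79 in MCT lungs, against 5.34, 6.19 and 4.4 in control lungs. Col1a1 over Col5a2 was 1.35, 1.18 and 1.66 in MCT lungs, against 0.663, 0.803 and 0.549 in control lungs. The groups did not overlap for either ratio. Both were among 6 of 13 ratios chosen after values were seen, which are given here as descriptions with no test. Col3a1 over Col1a1 overlapped, at 8.18, 8.59 and 5.91 in MCT lungs and 8.06, 7.72 and 8.02 in control lungs. The planned ratio of Col1a1 to the symbol's Col1a2 locus overlapped, at 2.46, 3.52 and 2.35 in MCT lungs and 2.52, 2.35 and 1.74 in control lungs (exact two-sided permutation p = 0.5). Planned Col5a2 over Col5a1 overlapped too, at 6.54, 6.04 and 5.41 in MCT lungs and 7.36, 4.83 and 6.63 in control lungs (exact permutation p = 0.8). Col1a1 over the 2 Col1a2 loci summed was 0.814, 0.825 and 0.892 in MCT lungs, against 0.606, 0.748 and 0.63 in control lungs. This ratio and Col3a1 over Col1a1 were also chosen after values were seen.

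The 2 type XI chains, minor fibrillar chains best known from cartilage, went different ways. Col11a2 had 10.5, 15.4 and 10.5 CPM in MCT lungs, against 26.6, 23.2 and 19.4 CPM in control lungs, and was 1.89-fold lower (log2 fold change -0.92, SE 0.21, adjusted p = 0.023, edgeR). Dropping control replicate 1 or 2, or else MCT replicate 1 or 3, took it past the threshold (adjusted p = 0.0635 to 0.0819). Col11a1 had 6.51, 0.711 and 2.24 CPM in MCT lungs, against 0.399, 0.298 and 0.647 CPM in control lungs. MCT replicate 1 was far the highest, and replicate 2 barely cleared the controls. Its log2 fold change of 2.75 (SE 0.78) was not called (adjusted p = 0.052, edgeR), but was called with DESeq2 (adjusted p = 0.00325), with no filter (adjusted p = 0.0428) and once MCT replicate 2 was dropped (adjusted p = 0.0103), and stood at 1.66 without MCT replicate 1. It rests on 12 to 96 counts per MCT library and 4 to 12 per control library.

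Cartilage genes stood at low levels. A cartilage list of 10 genes had 9 in the table, of which 3 were tested and 0 called, and its summed level was 4.92 to 7.08 CPM in MCT lungs and 6.06 to 7.82 CPM in control lungs. The defining genes Acan and Hapln1 averaged 0.155 and 0.0452 CPM in MCT lungs, and 0.0444 and 0 CPM in control lungs. Col2a1, the chain of cartilage fibrils, had no count in the MCT libraries and 1 count in 1 control library.

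**Figure D3:**
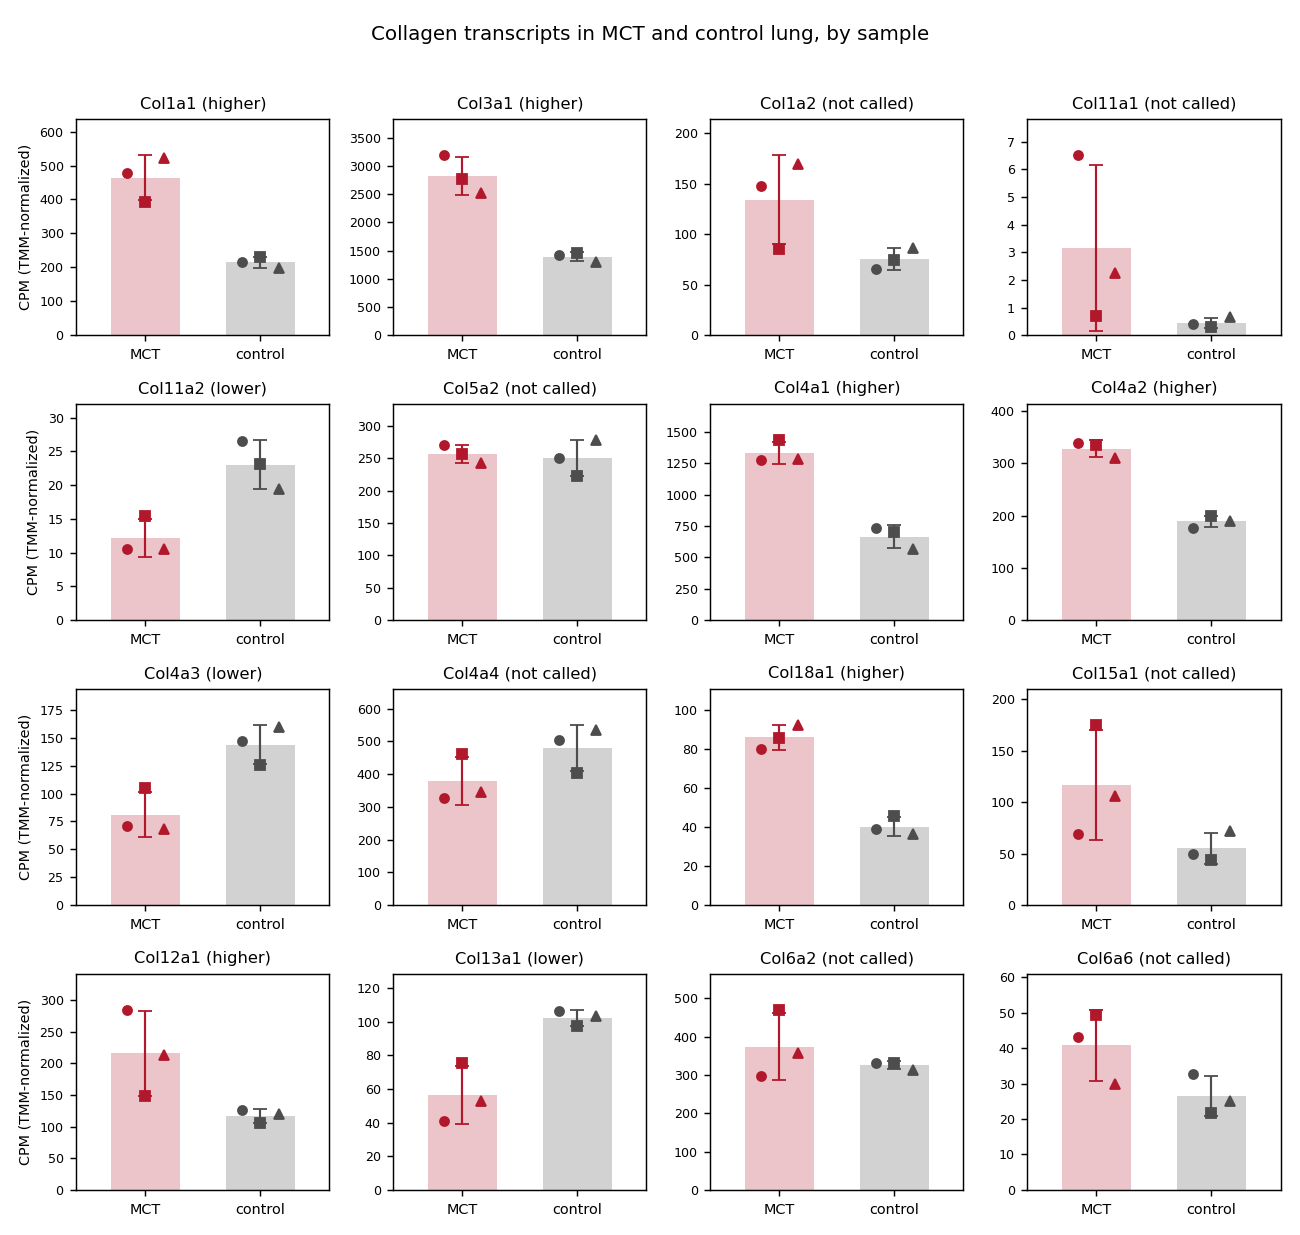
TMM-normalized CPM (vertical axes, each from 0) of 16 collagen genes in MCT and control lung; bars are means of 3 libraries, error bars SD, and circle, square and triangle mark replicates 1, 2 and 3. Col1a1, Col3a1, Col4a1, Col4a2 and Col18a1 stand clear of the controls in all 3 MCT libraries, while Col5a2 and Col4a4 overlap.

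In the type IV family, the a1 and a2 chains rose together. Col4a1 had 1272, 1432 and 1285 CPM in MCT lungs, against 730, 703 and 563 CPM in control lungs, and was 2-fold higher (log2 fold change 0.998, SE 0.16, adjusted p = 0.00653, edgeR). Col4a2 had 339, 336 and 310 CPM in MCT lungs, against 177, 199 and 190 CPM in control lungs, and was 1.74-fold higher (log2 fold change 0.80, SE 0.12, adjusted p = 0.00483, edgeR). Neither overlapped between groups. The FPKM ratio of Col4a1 to Col4a2, the pair with 76 bases between its starts, was 2.82, 3.2 and 3.11 in MCT lungs and 3.1, 2.66 and 2.22 in control lungs (exact two-sided permutation p = 0.2, where 3 against 3 cannot go below 0.1).

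None of the a3, a4 and a5 chains was called higher. Col4a3 had 71, 105 and 67.8 CPM in MCT lungs, against 147, 125 and 160 CPM in control lungs, and was 1.77-fold lower (log2 fold change -0.83, SE 0.18, adjusted p = 0.0231, edgeR). Its groups did not overlap, but dropping control replicate 1 or 3, or else MCT replicate 1 or 3, took it past the threshold (adjusted p = 0.0584 to 0.0914). Col4a4 had 328, 462 and 344 CPM in MCT lungs, against 503, 402 and 535 CPM in control lungs, and was not called (log2 fold change -0.34, SE 0.18, adjusted p = 0.233, edgeR). MCT replicate 2 lay above control replicate 2, so these groups overlap. Col4a5, the third chain of that trimer, had 158, 172 and 183 CPM in MCT lungs, against 159, 181 and 195 CPM in control lungs (log2 fold change -0.06, SE 0.12).

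Within libraries, Col4a4 over Col4a3 by FPKM, the pair with 412 bases between its starts, was 5.4, 5.18 and 6.05 in MCT lungs, against 4, 3.79 and 4.05 in control lungs, with no overlap. Col4a3 over Col4a5 was 0.438, 0.593 and 0.36 in MCT lungs, against 0.895, 0.674 and 0.795 in control lungs. Col4a1 over Col4a4, the most abundant chains of the 2 networks, was 3.37, 2.67 and 3.18 in MCT lungs, against 1.26, 1.5 and 0.883 in control lungs. Each parted the groups, but Col4a1 over Col4a4 was chosen after values were seen and is given as a description. The first 2 of them gave p = 0.1 in an exact two-sided permutation test, the smallest possible (adjusted p = 0.186 over 13 ratios). The table also holds a locus described as like the alpha-3(IV) chain, LOC100911572, with 3.19 ± 2.25 CPM in MCT lungs and 5.86 ± 0.522 CPM in control lungs (SD, n = 3). Adding it to Col4a3 left the log2 fold change at -0.82 (adjusted p = 0.0236, edgeR). Col4a6 was rare and not called, at 10.5 ± 3.31 CPM in MCT lungs and 9.44 ± 2.02 CPM in control lungs (SD, n = 3), and its log2 fold change of 0.16 was -0.08 without MCT replicate 2.

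**Figure D4:**
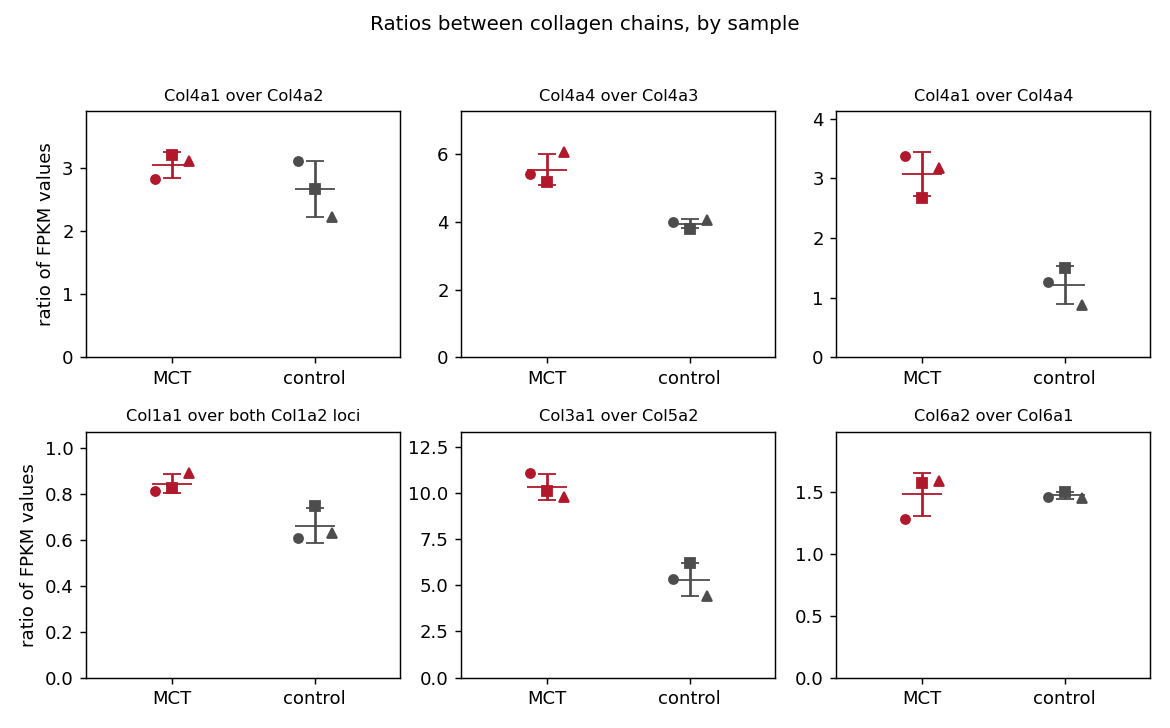
Ratio of authors' FPKM values (vertical axes, each from 0) for 6 chain pairs in MCT and control lung; horizontal marks are means of 3 libraries, bars SD, and circle, square and triangle mark replicates 1, 2 and 3. Col4a1 over Col4a4 and Col3a1 over Col5a2 part the groups widely, while Col4a1 over Col4a2 and Col6a2 over Col6a1 overlap. Col4a1 over Col4a4, Col3a1 over Col5a2 and Col1a1 over both Col1a2 loci were chosen after values were seen.

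Calls among markers of lung cell types were uneven. For the lists here and below, the shares over all genes tested were 8.01% called higher and 5.11% called lower. In lists this short, 1 or 2 called members say little about a cell type. In an alveolar type 1 list, 1 of 7 members (Rtkn2) was lower, 0 were higher, and the summed level was 3623 to 6856 CPM in MCT lungs and 5552 to 7081 CPM in control lungs. Ager, its most abundant member, averaged 1554 ± 713 CPM in MCT lungs and 1874 ± 348 CPM in control lungs (SD, n = 3). In an endothelium list, 2 of 7 members (Cdh5 and Tek) were lower and 0 higher, with sums of 1544 to 2927 CPM in MCT lungs and 2747 to 3225 CPM in control lungs. A lymphatic endothelium list had 4 of 5 members higher, with sums of 1099 to 1388 CPM in MCT lungs and 423 to 641 CPM in control lungs. A smooth muscle list had 3 of 7 members (Acta2, Cnn1 and Des) higher, with sums of 1059 to 1666 CPM in MCT lungs and 795 to 948 CPM in control lungs. A fibroblast list had 2 of 9 members higher (Scara5 and Thy1) and 0 lower, with sums of 824 to 972 CPM in MCT lungs and 794 to 948 CPM in control lungs, and a pericyte list had 0 of 6 called, with sums of 299 to 320 CPM in MCT lungs and 282 to 310 CPM in control lungs. Pdpn stands in both the alveolar type 1 and the lymphatic list, and Ager in both the alveolar type 1 and the lung list. Several of these counts changed when 1 library was left out. In such fits 481 to 1394 of all genes were called higher and 212 to 978 lower, against 1221 and 779 with all libraries. A lost call therefore need not mean that 1 library carried it. The smooth muscle count was 0 without control replicate 2, control replicate 3 or MCT replicate 3, 1 without MCT replicate 1 and 5 without MCT replicate 2. Rtkn2 and Cdh5 were each not called with any single control, MCT replicate 1 or MCT replicate 3 dropped (adjusted p = 0.0535 to 0.143 for Rtkn2 and 0.0826 to 0.131 for Cdh5, edgeR). The fibroblast count was 1 without control replicate 2 or 3, where Thy1 was not called. The calls of Tek, Scara5 and the 4 lymphatic genes held in all 6 such fits.

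The calls of the mesothelium and mast cell lists held without each library in turn. A mesothelium list, of the cells that line the pleura, had 4 of 5 members lower and 0 higher, with sums of 17.1 to 25.7 CPM in MCT lungs and 99.7 to 116 CPM in control lungs. A mast cell list had 4 of 4 members higher, with sums of 354 to 1208 CPM in MCT lungs and 13.4 to 25.1 CPM in control lungs. A nerve and Schwann cell list had 1 of 4 tested members (Scn7a) lower, with sums of 59.8 to 73.6 CPM in MCT lungs and 80.7 to 119 CPM in control lungs. A skeletal muscle list had 1 of 4 tested members (Acta1) higher, with sums of 9.78 to 34 CPM in MCT lungs and 8.25 to 9.31 CPM in control lungs, and a cardiac muscle list had 0 of 1 tested member called, with sums of 2.85 to 4.62 CPM in MCT lungs and 3.06 to 14.2 CPM in control lungs. Scn7a was not called in 4 of the 6 fits with 1 library dropped (control replicates 1 and 3, MCT replicates 1 and 3), nor Acta1 in 5 of them (any control, MCT replicates 1 and 3). The part of these cells in the collagen values was not tested.

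Both multiplexins, whose chains carry a fragment at their end that can be cut loose (endostatin from type XVIII) and which sit at the basement membrane zone, had means about 2-fold higher. Col18a1 had 79.6, 85.7 and 92 CPM in MCT lungs, against 38.7, 45.7 and 36.1 CPM in control lungs. It was 2.14-fold higher, with the smallest p among the collagen genes (log2 fold change 1.10, SE 0.13, adjusted p = 0.00218, edgeR), and the groups stood far apart. Col15a1 had 69.2, 175 and 106 CPM in MCT lungs, against 49.4, 43.9 and 71.8 CPM in control lungs. MCT replicate 1 lay below control replicate 3, and the gene was not called (log2 fold change 1.08, SE 0.32, adjusted p = 0.0589, edgeR). It was called with DESeq2 (adjusted p = 0.00468), with no filter (adjusted p = 0.0486) and once MCT replicate 1 was dropped (adjusted p = 0.021).

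FACIT chains lie on the surface of fibrils. Col12a1, a chain found in tissue under tension, had 285, 149 and 214 CPM in MCT lungs, against 127, 105 and 120 CPM in control lungs, and was 1.84-fold higher (log2 fold change 0.88, SE 0.22, adjusted p = 0.0331, edgeR). MCT replicate 2 was the lowest and still above all controls. Dropping any single control, or else MCT replicate 1 or 3, took it past the threshold (adjusted p = 0.0641 to 0.116), as did both FPKM scales (adjusted p = 0.0557 and 0.0554, limma). Col16a1, the most abundant FACIT chain, had 321, 240 and 222 CPM in MCT lungs, against 186, 198 and 227 CPM in control lungs (log2 fold change 0.36, SE 0.16, adjusted p = 0.182, edgeR). Col20a1 had 7.05, 11 and 10.6 CPM in MCT lungs, all below the 11.4, 13.5 and 16.9 CPM of control lungs, but was not called (adjusted p = 0.157, edgeR). Col14a1 had a log2 fold change of -0.44 (SE 0.24) and Col9a2 of -0.08 (SE 0.24), which turned to 0.06 without control replicate 1 and 0.02 without MCT replicate 2.

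Type VI collagen forms beaded filaments around cells and next to basement membranes. Col6a2 had 296, 470 and 357 CPM in MCT lungs, against 332, 332 and 313 CPM in control lungs, and Col6a1 had 192, 248 and 187 CPM in MCT lungs, against 190, 184 and 180 CPM in control lungs. In both, replicate 2 was the highest MCT library, and neither was called (adjusted p = 0.487 and 0.427, edgeR). Their FPKM ratio was 1.48 ± 0.172 in MCT lungs and 1.47 ± 0.0272 in control lungs (SD, n = 3, exact permutation p = 1). Col6a6 had 43.1, 49.4 and 29.9 CPM in MCT lungs, against 32.7, 21.8 and 25 CPM in control lungs (log2 fold change 0.62, SE 0.22, adjusted p = 0.0965, edgeR). The third chain of the common trimer stood in the table as COL6A3, an assembled locus whose capitals keep it outside the 40. It had 527, 590 and 474 CPM in MCT lungs, against 432, 266 and 221 CPM in control lungs, with no overlap, and was not called (log2 fold change 0.79, SE 0.24, adjusted p = 0.0631, edgeR). Its FPKM over Col6a1 was 4.28, 3.58 and 4.26 in MCT lungs and 3.46, 2.26 and 1.79 in control lungs, a ratio chosen after values were seen.

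Among the transmembrane chains, Col13a1, which sits at cell adhesion sites and marks a kind of lung fibroblast in mice, had 41.1, 75.3 and 53 CPM in MCT lungs, against 106, 97.3 and 104 CPM in control lungs. It was 1.81-fold lower (log2 fold change -0.86, SE 0.20, adjusted p = 0.0275, edgeR) with no overlap. Dropping any single control, or else MCT replicate 1 or 3, took it past the threshold (adjusted p = 0.0535 to 0.0934). Of the 9 fibroblast list genes, Scara5 and Thy1 were called higher (log2 fold changes 1.08 and 2.32). The other 7 were not called, among them Tcf21 and Pdgfra (0.17 and -0.17). Whether fibroblast content bears on the Col13a1 value was not tested. Col17a1, a chain of the anchors of basal epithelial cells, ranged widely, with 5.49, 14.9 and 25.4 CPM in MCT lungs, against 13.8, 16.2 and 16 CPM in control lungs (log2 fold change -0.01, SE 0.44). An airway basal cell list stood at sums of 0.407 to 5.11 CPM in MCT lungs and 4.31 to 6.99 CPM in control lungs, with 1 of 2 tested members lower and Krt5, not tested, at 0 in 2 MCT libraries and 1 control library. The member called was Krt14, 5.27-fold lower (adjusted p = 0.0284, edgeR), and it was not called with control replicate 1 or 3 or MCT replicate 1 or 2 dropped (adjusted p = 0.063 to 0.11).

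None of the remaining chains was called. Col7a1, of anchoring fibrils, had 70.7 ± 20.1 CPM in MCT lungs and 62.9 ± 7.56 CPM in control lungs (SD, n = 3), with a log2 fold change of 0.17 that was -0.09 without MCT replicate 2. Of the type VIII pair, which vessels make, Col8a1 had 6.85, 4.74 and 11.7 CPM in MCT lungs, against 4.13, 2.91 and 6.42 CPM in control lungs (log2 fold change 0.78, SE 0.40, adjusted p = 0.228, edgeR). Col8a2 had a log2 fold change of -0.19 (SE 0.28), which was 0.11 without control replicate 2, and the ratio of Col8a2 to Col8a1 by FPKM overlapped between groups (exact permutation p = 0.3). The 10 genes under the filter were Col2a1, Col9a1, Col9a3, Col10a1, Col19a1, Col22a1, Col24a1, Col25a1, Col26a1 and Col28a1, each with 0 to 12 counts per library. Of these, Col24a1 had 10, 10 and 8 counts in MCT lungs, against 4, 5 and 8 in control lungs, with CPM that did not overlap between groups, and Col9a1 had 0 in all MCT libraries, against 2, 0 and 7 counts in control lungs.

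The 3 MCT libraries lay at different distances from the controls. Among the 9 called collagen genes, MCT replicate 2 was the library nearest the control mean in 5, and replicates 1 and 3 in 2 each. The calls of Col1a1, Col3a1, Col4a1, Col4a2 and Col18a1 held without each of the 6 libraries in turn, with log2 fold changes of 0.76 to 1.21 over those fits.

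Genes that make, bind and break down collagen, with inhibitors of that breakdown, were counted from 6 lists. Of 112 listed genes 105 were in the table and 96 were tested, of which 34 (35.4%) were higher and 5 (5.21%) were lower in MCT lungs, against 8.01% and 5.11% of all genes. Without a library the number higher was 11 without control replicate 2, 12 without control replicate 3 and 20 without MCT replicate 1 or 3, and the number lower 1 without control replicate 3, 2 without control replicate 2, 3 without MCT replicate 3 and 8 without MCT replicate 2. By list, the lowest number higher in any of those fits was 1 for hydroxylation and folding, 2 for trimming and crosslinking, 2 for fibril binding, 2 for basement membrane partners, 0 for receptors and 3 for breakdown and uptake. Each of these lowest counts occurred without control replicate 2 or control replicate 3, and some also without another library.

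The enzymes and chaperones that hydroxylate and fold procollagen had 7 of 21 tested members higher and 0 lower. The chaperone gene Fkbp10 had 58.6 ± 4.52 CPM in MCT lungs and 34.5 ± 2.69 CPM in control lungs (SD, n = 3, adjusted p = 0.00693, edgeR). P4hb, the beta subunit of prolyl 4-hydroxylase, was 1.71-fold higher (adjusted p = 0.0185, edgeR), and was not called with control replicate 2, control replicate 3 or MCT replicate 3 dropped (adjusted p = 0.0562 to 0.0826).

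The enzymes that trim and crosslink procollagen went both ways, with 4 of 13 tested members higher, 2 lower and 7 not called. Loxl1, a lysyl oxidase that crosslinks matrix proteins, was 1.85-fold higher (adjusted p = 0.00271, edgeR). The 2 genes that were lower, named although outside the rule, both encode proteinases that cut the C-propeptide from fibrillar procollagens. Bmp1 had 183 ± 29.3 CPM in MCT lungs and 363 ± 57.1 CPM in control lungs (SD, n = 3) and was 1.98-fold lower (log2 fold change -0.99, SE 0.17, adjusted p = 0.00949, edgeR). Tll1 had 1.67 ± 0.3 CPM in MCT lungs and 4.86 ± 1.22 CPM in control lungs (SD, n = 3, adjusted p = 0.0162, edgeR), but was not called with control replicate 3 dropped (adjusted p = 0.0761). Pcolce, also outside the rule, whose protein enhances that cleavage, had 94.5 ± 7.22 CPM in MCT lungs and 42.7 ± 9.38 CPM in control lungs (SD, n = 3, adjusted p = 0.00444, edgeR). Tgm2, the most abundant member, was not called (log2 fold change 0.30).

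Of the proteins that bind fibrils, 7 of 17 tested were higher and 0 lower. Fn1, the gene of fibronectin, was 5.25-fold higher (adjusted p = 0.000757, edgeR), while Sparc, the most abundant member, was not called by edgeR (log2 fold change 0.51, adjusted p = 0.113) and was called by DESeq2 (adjusted p = 0.0173). Of the basement membrane partners, 6 of 17 were higher and 2 lower. Fbln1, the gene of fibulin-1, was 2.1-fold higher (adjusted p = 0.00481, edgeR), and the laminin chain gene Lamb2, the most abundant, had a log2 fold change of -0.17 and was not called. The collagen receptors had 1 of 10 higher: Lair1, an inhibitory receptor of leukocytes, with 1.15 ± 0.299 CPM in MCT lungs and 0.287 ± 0.138 CPM in control lungs (SD, n = 3, adjusted p = 0.0328, edgeR), and was not called with any single control, MCT replicate 1 or MCT replicate 3 dropped (adjusted p = 0.0598 to 0.136). The integrin gene Itgb1 had a log2 fold change of 0.36 and was not called.

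Genes of collagen breakdown and uptake had 9 of 18 tested members higher and 1 lower. The list also holds the Timp genes, which encode inhibitors of metalloproteases, and Timp1 and Timp3 are among the higher members. The count is therefore not a count of breakdown genes alone. The cathepsin gene Ctss had 104 ± 21.5 CPM in MCT lungs and 35.9 ± 2.56 CPM in control lungs (SD, n = 3, adjusted p = 0.00135, edgeR). Ctsb, the most abundant member, was 2.22-fold higher (adjusted p = 0.0125, edgeR), and was not called with control replicate 2 or 3 dropped (adjusted p = 0.0521 to 0.0612). Both cathepsins are also made by macrophages, and a macrophage list had 3 of 4 tested members higher, with sums of 650 to 901 CPM in MCT lungs and 366 to 458 CPM in control lungs. Mrc1 is among the higher members of both lists, so the lists are not independent. The part of macrophages in the result was not tested.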

How the data were processed

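Per the labels' protocols, libraries were made from fragmented poly(A) RNA with random primers; strand handling is not given in those protocols. For each gene and library the deposited table gives 1 estimated count and 1 FPKM value. Per the submitters' processing notes, Bowtie2, TopHat2 2.0.3.12 and the build Rnor_6.0 were used, with no counting tool or annotation named. The authors made the FPKM values. Of the deposited estimated counts above 0, 90.7% to 91.5% per library were whole, and all were rounded.

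The main test was edgeR 4.0.16 (R 4.3.3), quasi-likelihood, TMM, no covariates, all 6 libraries, genes kept by filterByExpr (minimum count 10, minimum total count 15), with Benjamini-Hochberg adjustment over all 15250 genes. Alternatives were DESeq2 1.42.0, limma 3.58.1 (voom, and log2 of FPKM plus 0.1 or 1), other normalizations and filters, a replicate block, and each library left out. The edgeR, DESeq2 and limma-voom fits were tested on simulated data. Ratios of chains were planned as descriptions only; the exact permutation tests were added, and 6 of the 13 ratios were chosen after values were seen. Between libraries of 1 group, chi-square over its degrees of freedom was 22.1 to 49.7, and none was merged. The genes named are all called collagen genes, the partners of each trimer or promoter pair, the most abundant chain of each class, and the member with the smallest p and the most abundant member of each pathway list; the members and lists were chosen with earlier results of these data known. The 15 marker lists are given by their sums and calls. Their members are named unevenly: called members in several lists, and some uncalled ones. The member with the smallest p and the most abundant member of each marker list, planned to be named, are not all given. Promoter sequences are RefSeq's, build GRCr8; genome positions in the build of the files and protein sequences were not used here.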

Additional observations from a re-analysis of the deposited data

How the results depend on the processing

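The calls of Col1a1, Col3a1, Col4a1, Col4a2 and Col18a1 kept their direction and their call under every alternative run. Over the fits that leave out each library in turn, 5 to 8 collagen genes were higher in MCT lung and 0 to 3 lower, against 6 and 3 with all libraries; 9 were higher with DESeq2 or with no filter, 7 with split loci summed, and 5 on either FPKM scale. All genes called ranged from 481 to 1394 higher and 212 to 978 lower when a library was left out, with 1182 lower with DESeq2. Pathway genes ranged from 11 to 31 higher and 1 to 8 lower, and 3 were lower with log2(FPKM + 0.1). The replicate numbers of the titles did not pair the libraries (correlations of deviations of same-numbered libraries -0.06, -0.07 and -0.00), and the replicate block gave 917 genes higher and 546 lower, with the same 6 and 3 collagen counts and 24 and 6 pathway genes.

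Class medians moved with the filter: with no filter the FACIT median was -0.295, the short-chain network -0.187 and the anchoring and other class -0.208, since genes with few counts entered; the fibrillar median was 0.222 with the stricter filter, 0.197 and 0.162 on the FPKM scales with pseudocounts of 0.1 and 1, where fewer genes were tested. With a library left out the medians ranged over -0.249 to 0.103 (FACIT), 0.180 to 0.483 (fibrillar), -0.071 to 0.188 (type IV), 0.883 to 1.252 (multiplexin), 0.038 to 0.346 (type VI), 0.060 to 0.431 (short-chain network), -0.692 to -0.137 (transmembrane, and -0.007 with no filter) and -0.088 to 0.311 (anchoring), so the FACIT, type IV and anchoring medians turned sign. Signs near 0 turned without single libraries in 9 uncalled genes, over ranges of -0.577 to 0.396 for Col17a1, -0.194 to 0.326 for Col27a1, -0.135 to 0.010 for Col4a5, -0.075 to 0.380 for Col4a6, -0.036 to 0.177 for Col5a1, -0.037 to 0.124 for Col5a2, -0.088 to 0.311 for Col7a1, -0.344 to 0.109 for Col8a2 and -0.249 to 0.063 for Col9a2; the cause was not tested. The planned sum over identifiers of 1 symbol gave no value, since no collagen symbol had a second row. The 10 genes under the filter, with at most 12 counts per library, were not tested with the filter.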
